A study of Mus musculus with 26 samples.

Results

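Spleen RNA libraries coded MM (5) were compared with those coded ON (5), which together are 10 of the 26 libraries in the deposited table. All came from female BALB/c mice aged 8 weeks that received ovalbumin (OVA, an egg-white protein used to sensitise mice as an allergen) into the peritoneum at 0.05 mg per day on days 1, 3 and 5. On day 3, after the second OVA injection, the MM mice were also given a synthetic miR-676-3p mimic through a tail vein, at 7 mg per kg. By the labels the mimic is therefore what separates MM from ON, and a control oligonucleotide is not mentioned for ON. The codes are not defined in the labels, which also place 6 libraries coded OS under OVA and 5 coded MN under OVA with the mimic. The members were chosen by code alone, with no measured value. The labels give 20 mice per group but do not tie libraries to mice. The p-values therefore measure the spread between these libraries, which may be technical in part.

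A microRNA mimic is a short double-stranded RNA whose guide strand is loaded onto an Argonaute protein. The loaded strand pairs through its seed, bases 2 to 8 from the 5′ end, with sites that lie mostly in the 3′ untranslated regions (UTRs) of messenger RNAs, and lowers their stability and translation. The spleen filters blood and holds B cells, T cells, macrophages, neutrophils and, in the mouse, blood-forming cells with many megakaryocytes.

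The mature sequence of miR-676-3p is shown first because its seed defines which messenger RNAs the mimic could pair with. It was taken from RefSeq (GRCm38.p6, chromosome X, 100381151 to 100381171, + strand, bases 55 to 75 of an 89-base hairpin), with the seed in capitals.
mmu-miR-676-3p: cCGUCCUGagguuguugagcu
The DNA match to the seed is CAGGACG, and an A after it gives the 8-base form CAGGACGA. A stretch around the site is shown for 2 of the site-bearing genes that the results return to, with the match in capitals.
Ccnj, 3′ UTR, chromosome 19: tcacggcaCAGGACGAatgcagt
Dusp5, 3′ UTR, chromosome 19: cgctggacCAGGACGggagaagc
Ccnj encodes cyclin J and carries the 8-base form, while Dusp5, a nuclear phosphatase that inactivates ERK kinases, carries the 7-base form.

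Depth lay between 14224832 reads (MM 2) and 18113989 reads (ON 4), as recovered from the smallest steps between values. Values are FPKM (fragments scaled by gene length and library size). The test covered 15672 of 56392 genes, those that reached 1 FPKM in 5 or more of the 26 libraries. Leukocyte markers of spleen were present, with Ptprc (CD45) at 41.4 to 74.1 FPKM and Cd79a (a B-cell receptor subunit) at 138 to 464 FPKM in the 10 libraries. Summed reads of 24 pancreatic genes made up 27.8% of library ON 2, 14.0% of MM 2 and 4.27% of ON 3. Their share was 0.00305% or less in the other 7 libraries. Between 8 and 18 of these 24 genes were at 0 in those 7 libraries. The effective library size behind the FPKM scale was 0.712 of the recovered reads in ON 2 and 0.885 in MM 2, against 0.981 to 1.12 in the other 8. Across genes, log2 values of library pairs correlated at 0.932 to 0.977 within MM, at 0.932 to 0.981 within ON and at 0.914 to 0.975 between the codes. Several of the results, though not all, are given with and without these libraries.

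No single gene passed in MM against ON. By limma on log2(FPKM + 1) with Benjamini-Hochberg adjustment, 0 of 15672 genes had an adjusted p under 0.05 (0% higher and 0% lower), and the smallest adjusted p was 0.103. The unadjusted p was under 0.05 for 374 genes higher in MM (2.39% of those tested) and for 296 lower (1.89%). The 5 MM libraries all lay above the 5 ON libraries for 46 genes (0.294%) and all below for 37 (0.236%). Estimates were above 0 for 51.1% of genes and below for 48.9%, with a median of 0.005 on the log2 scale. limma voom on the recovered reads called 2 genes, Ccn1 and Ccn2, both higher in MM (adjusted p = 0.0353 each).

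Ccn2 and Ccn1 had the smallest p-values among named genes higher in MM. Both encode secreted matricellular proteins that bind integrins, and both are textbook targets of YAP and of serum response factor. Ccn2 (ENSMUSG00000019997, chromosome 10, 24471340 to 24474581, + strand, in the table's coordinates on a build it does not name) had 94.02, 78.8, 83.9, 84.6 and 89.6 FPKM in MM 1 to MM 5 and 43.6, 57.1, 37.2, 32.3 and 40.2 FPKM in ON 1 to ON 5. The groups did not overlap, and ON 2 was the highest of ON. Its mean was 86.2 ± 5.82 FPKM in MM and 42.1 ± 9.395 in ON (SD, 5 libraries each), a log2 difference of 1.04 ± 0.14 (limma adjusted p = 0.103). Ccn1 (ENSMUSG00000028195, chromosome 3, 145352731 to 145355736, - strand) had 223, 63.9, 71.9, 54.6 and 168 FPKM in MM 1 to MM 5 and 2.73, 28.8, 5.01, 4.23 and 2.17 FPKM in ON 1 to ON 5. All 5 MM libraries again lay above all 5 ON libraries, with ON 2 far above the other 4 ON libraries. The log2 difference was 3.96 ± 0.60 (limma adjusted p = 0.2098), and the mean FPKM in MM was 13.5 times that in ON. Without MM 1 the log2 differences were lower, at 1.008 for Ccn2 and 3.665 for Ccn1. Without ON 2 both genes passed, at log2 differences of 1.16 for Ccn2 and 4.51 for Ccn1 (limma adjusted p = 0.00393 each). Without ON 2, ON 3 and MM 2 together they passed again, at 1.18 and 4.82 (limma adjusted p = 0.0435 each).

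Both genes belong to a list of 26 immediate early genes, which cells transcribe within minutes of a stimulus without new protein synthesis. Estimates of all 26 lay above 0, and 19 of them had an unadjusted p under 0.05 (2.39% of all genes in this direction). The groups did not overlap for 6 of the 26, namely Ccn1, Ccn2, Junb, Egr1, Ier3 and Zfp36, where 0.294% of all genes did so in this direction. The median log2 difference was 1.06, with a range from 0.29 to 3.96, beside 0.005 for all genes tested, and 0 of 26 passed. With 1 library left out that median ran from 0.817 (without MM 1) to 1.196 (without ON 2). The list mean, as a deviation from the mean of the 10 libraries, was 1.45, 0.28, 0.51, 0.00 and 0.66 in MM 1 to MM 5 and -0.62, 0.18, -0.78, -0.79 and -0.90 in ON 1 to ON 5. Thus 4 of 5 MM libraries lay above every ON library, and MM 4 lay below ON 2. MM 1 was the highest MM library in 25 of 26 members, against 3080 of 15672 genes tested (ties included).

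Among the transcription factors of the list, Fos, the partner of Jun in AP-1, had 169.5, 43.99, 44.4, 38.8 and 86 FPKM in MM 1 to MM 5 and 9.42, 43.3, 6.28, 4.801 and 4.04 FPKM in ON 1 to ON 5. ON 2 reached the level of MM 2 to MM 4, while the other 4 ON libraries were at most 9.42 FPKM. Its log2 difference was 2.72 ± 0.59 (limma adjusted p = 0.7097), 2.37 without MM 1, and 3.26 without ON 2 (limma adjusted p = 0.0246). Junb, another AP-1 subunit, had 266, 96.7, 174, 71.6 and 94.9 FPKM in MM 1 to MM 5 and 38.4, 65.02, 26.6, 33 and 32.1 FPKM in ON 1 to ON 5, with no overlap and a log2 difference of 1.73 ± 0.35. Egr1, a zinc finger factor induced by serum, had 87.6, 17.8, 25.1, 20.5 and 54.6 FPKM in MM 1 to MM 5 and 11.7, 15.6, 8.49, 8.57 and 6.45 FPKM in ON 1 to ON 5, also without overlap (1.70 ± 0.41). Nr4a1, an orphan nuclear receptor induced by antigen receptor signals, had 125, 51.96, 48.4, 34.8 and 73.4 FPKM in MM 1 to MM 5 and 15.8, 51.96, 13.1, 12.2 and 10.7 FPKM in ON 1 to ON 5, where ON 2 equalled MM 2 (1.77 ± 0.43). Fos, Egr1, Nr4a1 and the Dusp1 and Dusp5 phosphatases were singled out after their values were seen.

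The list also holds negative regulators that are induced together with these factors. Zfp36 (tristetraprolin), which binds AU-rich elements and speeds the decay of cytokine messenger RNAs, had 209, 80.4, 94.2, 68.4 and 109 FPKM in MM 1 to MM 5 and 43.9, 50.9, 29.2, 34.9 and 33.2 FPKM in ON 1 to ON 5, with no overlap and a log2 difference of 1.43 ± 0.27 (limma adjusted p = 0.479). Dusp1, a phosphatase that inactivates p38 and JNK, had 198, 113, 123, 91.4 and 108 FPKM in MM 1 to MM 5 and 34.3, 115, 26.4, 29.3 and 29.4 FPKM in ON 1 to ON 5. For Dusp1 the value in ON 2 fell inside the MM range and the other 4 ON libraries stayed at or below 34.3 FPKM. Its log2 difference was 1.62 ± 0.37, 1.446 without MM 1, and 2.00 without ON 2 (limma adjusted p = 0.00463). Dusp5 had 34.7, 16.3, 30.9, 16.5 and 18.5 FPKM in MM 1 to MM 5 and 7.67, 25.9, 7.76, 5.39 and 5.27 FPKM in ON 1 to ON 5, again with only ON 2 inside the MM range (1.27 ± 0.39). Btg2, an antiproliferative gene and the list member with the highest FPKM, had 182 ± 55.1 FPKM in MM and 118 ± 35.99 in ON and differed by 0.62 ± 0.23. The early response gene Ier3 had 38.7, 12.8, 23.1, 11.2 and 18.8 FPKM in MM 1 to MM 5 and 5.46, 9.53, 5.78, 3.91 and 3.55 FPKM in ON 1 to ON 5 without overlap (1.65 ± 0.32).

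**Figure D1:**
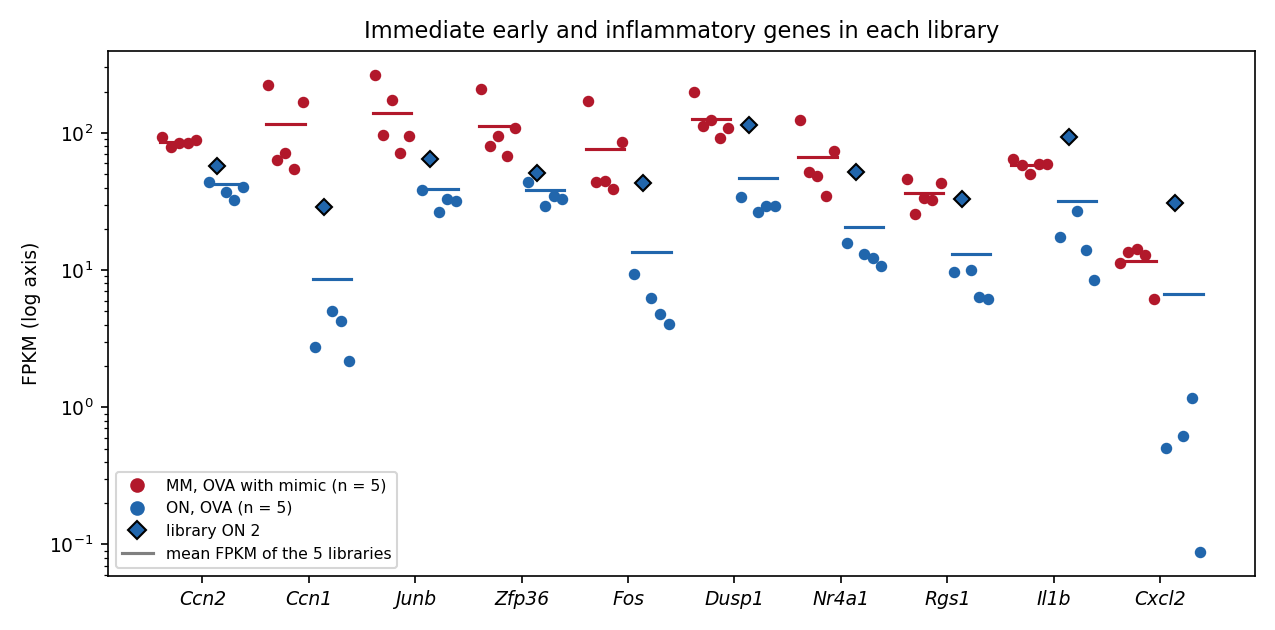
FPKM (log axis) of 10 immediate early or inflammatory genes in each of the 5 MM and 5 ON libraries, with the mean of each group as a line and ON 2 as a diamond. Ccn2, Ccn1, Junb and Zfp36 show no overlap between the groups, while for the other 6 genes ON 2 lies within or above the MM range and the other 4 ON libraries lie below it.

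As all members lay above 0, their promoter windows (250 bases before to 50 bases after the start, RefSeq, GRCm38.p6) were searched on both strands for the CArG box of serum response factor and for the cAMP response element TGACGTCA. Windows were found for 21 of the 26 genes, and not for Ccn2, Egr1, Egr3, Ier2 and Myc. A CArG box was present in 3 of 21 (14.3%), Egr2, Dusp5 and Zfp36, against 1.81% of 27025 genes. The cAMP response element was present in 2 of 21 (9.52%), Dusp1 and Btg2, against 2.03% of all genes. Matches are descriptions of letters and not of bound sites. The windows of 3 members with values above are shown, with the CArG boxes of Zfp36 and Dusp5 and the cAMP response element of Dusp1 in capitals.
Zfp36, chr7:28379179-28379478, - strand: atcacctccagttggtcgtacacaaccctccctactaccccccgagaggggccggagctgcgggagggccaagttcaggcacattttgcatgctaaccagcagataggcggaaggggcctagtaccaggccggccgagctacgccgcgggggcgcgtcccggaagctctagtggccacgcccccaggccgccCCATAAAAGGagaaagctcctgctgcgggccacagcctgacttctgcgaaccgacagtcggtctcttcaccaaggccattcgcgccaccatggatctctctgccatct
Dusp5, chr19:53528895-53529194, + strand: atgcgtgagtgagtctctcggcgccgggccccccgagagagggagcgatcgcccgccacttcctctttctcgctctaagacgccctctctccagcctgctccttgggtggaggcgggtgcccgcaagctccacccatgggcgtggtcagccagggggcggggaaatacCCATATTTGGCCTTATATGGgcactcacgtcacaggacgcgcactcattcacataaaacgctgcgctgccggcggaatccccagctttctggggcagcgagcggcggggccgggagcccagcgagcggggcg
Dusp1, chr17:26508423-26508722, - strand: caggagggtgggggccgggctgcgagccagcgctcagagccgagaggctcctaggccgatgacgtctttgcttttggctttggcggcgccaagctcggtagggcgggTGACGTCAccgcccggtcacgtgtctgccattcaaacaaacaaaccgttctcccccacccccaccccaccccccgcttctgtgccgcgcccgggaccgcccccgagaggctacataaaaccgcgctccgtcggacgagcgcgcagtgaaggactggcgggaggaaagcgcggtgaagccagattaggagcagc
The Dusp5 window holds 2 CArG boxes side by side, and its gene was the single one of these 3 that also carries a miR-676-3p seed match in its 3′ UTR.

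Inflammatory mediators also divided ON into ON 2 and the other 4 libraries. Of 18 genes tested from a list of 20 cytokine, chemokine and NF-kappaB response genes, 17 had estimates above 0. An unadjusted p under 0.05 was found for 5 (2.39% of all genes in this direction). Of the 18, none was free of overlap (0.294% of all genes in this direction) and 0 passed, with a median of 0.78. With 1 library left out that median ran from 0.567 (without MM 1) to 0.842 (without ON 2). Il1b, the pyrogenic cytokine interleukin-1 beta, had 64.5, 57.9, 50.3, 59.5 and 59.8 FPKM in MM 1 to MM 5 and 17.5, 93.2, 27.02, 14.03 and 8.49 FPKM in ON 1 to ON 5. The 5 MM libraries were close together, 4 ON libraries were below them, and ON 2 was above them all. The chemokine Cxcl2, which attracts neutrophils, had 11.2, 13.5, 14.1, 12.9 and 6.18 FPKM in MM 1 to MM 5 and 0.503, 30.9, 0.615, 1.16 and 0.0883 FPKM in ON 1 to ON 5, with the same order. Their log2 differences were 1.34 ± 0.49 and 2.10 ± 0.78 (limma adjusted p = 0.884 each). Osm, the IL-6 family cytokine oncostatin M, had 4.06 ± 1.88 FPKM in MM and 2.23 ± 0.516 in ON, with ON 2 within the MM range (0.60 ± 0.21). The list mean was 0.69 in ON 2, 0.13 to 0.83 in MM and -0.98 to -0.36 in the other 4 ON libraries.

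Leaving out ON 2 alone changed the count of passing genes from 0 to 15, the only replicate whose removal did so. ON 2 was the highest ON library in 21 of 26 immediate early and 13 of 18 inflammatory genes. Leaving it out therefore favours calls of those genes as higher in MM. The adjusted p-values without ON 2, here and above, are conditional on that exclusion. Then 14 genes were called higher in MM (0.0893% of those tested) and 1 lower (0.00638%). The 14 were Ccrl2, Cxcl2, Ccn1, Ccn2, Rgs1, Dusp1, Tgif1, Nfkbiz, Plk2, Fos, Tnfaip3, Il1b, Plaur and Nr4a1, of which 5 are on the immediate early list and 5 on the inflammatory list. The 1 lower was Mir7048. Rgs1, which restrains chemokine receptor signals in lymphocytes, had 45.97, 25.8, 33.5, 32.6 and 43.3 FPKM in MM 1 to MM 5 and 9.66, 33.2, 10.1, 6.32 and 6.19 FPKM in ON 1 to ON 5. Its log2 difference was 1.65 ± 0.38 with all libraries and 2.04 without ON 2 (limma adjusted p = 0.00401). Ccrl2, a chemokine-binding receptor without signalling of its own, had 25.3, 25.7, 26.01, 23.3 and 18.9 FPKM in MM 1 to MM 5 and 8.85, 57.4, 9.298, 7.25 and 7.45 FPKM in ON 1 to ON 5. It differed by 0.89 ± 0.47 with all libraries and by 1.43 without ON 2 (limma adjusted p = 0.00244). In this fit the groups did not overlap for 165 genes higher in MM (1.05%) and 125 lower (0.798%), and among them were 19 of 26 immediate early and 9 of 18 inflammatory genes. Rgs1 and Ccrl2 were singled out by their calls in that fit.

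With ON 2, ON 3 and MM 2 left out together, which leaves 4 MM against 3 ON libraries, 6 genes were called higher (0.0383%) and 1 lower (0.00638%). The 6 were Ccrl2, Rgs1, Ccn1, Ccn2, Cxcl2 and Il1b, and the 1 lower was the predicted gene Gm49480. No overlap was found for 790 genes higher (5.04%) and 609 lower (3.89%), and for 19 of 26 immediate early genes, whose median was then 1.28. ON 2 was the highest of the 5 ON libraries in 21 of 26 immediate early genes (80.8%) and in 13 of 18 inflammatory genes (72.2%), against 26.7% of all genes tested. ON 2 was also the library with the most pancreatic reads. MM 2 and ON 3, the others with such reads, had immediate early list means of 0.28 and -0.78, each inside the range of the remaining libraries of its own code. The part of pancreatic tissue in the ON 2 values was not tested.

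Genes of neutrophils lay in the other direction. All 16 of 16 neutrophil granule and surface genes had estimates below 0 and 13 an unadjusted p under 0.05 (1.89% of all genes in this direction), 0 passed, and the median was -1.11. Mmp9, the gelatinase of neutrophil granules, had 3.21, 13.4, 2.63, 8.72 and 2.87 FPKM in MM 1 to MM 5 and 10.2, 12.9, 13.2, 16.1 and 10.7 FPKM in ON 1 to ON 5, a log2 difference of -1.15 ± 0.36 (limma adjusted p = 0.884). Each MM library except MM 2 lay below every ON library, with MM 4 the nearest to ON. Mmp8, the neutrophil collagenase, had 1.06, 14.8, 1.64, 11.7 and 3.243 FPKM in MM 1 to MM 5 and 11.8, 22.1, 16.9, 16.4 and 10.04 FPKM in ON 1 to ON 5 (-1.55 ± 0.53). For Mmp8 both MM 2 and MM 4 lay within the ON range and the other 3 MM libraries below it. S100a8 and S100a9, the calprotectin subunits and the most abundant members, had means of 571 ± 427 FPKM in MM and 1063 ± 361 in ON and of 961 ± 712 FPKM in MM and 1695 ± 527 in ON, respectively. The receptor Cxcr2, which responds to Cxcl2, had 6.14 ± 1.02 FPKM in MM and 9.08 ± 2.28 in ON (-0.48 ± 0.16). The list mean was -1.17, 0.72, -1.29, 0.29 and -1.20 in MM 1 to MM 5 and 0.05 to 0.95 in ON, and without ON 2, ON 3 and MM 2 the median was -1.41. In bulk tissue fewer cells of a type and less RNA per cell cannot be told apart.

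Granulocyte precursor genes were also lowest in MM 1, MM 3 and MM 5. Of 10 genes, 9 lay below 0, where 48.9% of all genes did. An unadjusted p under 0.05 was found for 5 (1.89% of all genes in this direction), and the median was -1.17. Elane, which encodes neutrophil elastase made at the promyelocyte stage, had 15.8, 134, 20.9, 66.8 and 13.2 FPKM in MM 1 to MM 5 and 51.5, 128, 97.8, 126 and 89.9 FPKM in ON 1 to ON 5 (-1.47 ± 0.58). MM 1, MM 3 and MM 5 lay below every ON library, MM 4 within ON and MM 2 above it. Fcnb, a ficolin of myeloid precursors, had 13.8 ± 14.5 FPKM in MM and 28.3 ± 8.49 in ON, and Ctsg, which encodes cathepsin G, had 14.2 ± 14.8 FPKM in MM and 27.1 ± 9.98 in ON. Without ON 2 none of the 10 had an unadjusted p under 0.05, while the median remained at -1.11. Without ON 2, ON 3 and MM 2 together, 7 of the 10 had one, beside 569 of 15672 genes tested, and the median was -1.48. Of 18 megakaryocyte and platelet genes tested, all 18 lay below 0. An unadjusted p under 0.05 was found for 6 (1.89% of all genes in this direction), and the median was -0.47. Tubb1, the platelet beta-tubulin, had 23.6, 60.7, 32.4, 48.8 and 29.9 FPKM in MM 1 to MM 5 and 44.8, 55.5, 88.4, 61.1 and 53.7 FPKM in ON 1 to ON 5 (-0.67 ± 0.26). The groups overlapped in Tubb1. Ppbp and Pf4, platelet chemokines with the highest FPKM of the list, differed by -0.51 ± 0.24 and -0.30 ± 0.22, the latter by -0.16 without MM 5 and by -0.19 without ON 3. Of 22 erythroid genes, 18 lay below 0 and 0 had an unadjusted p under 0.05, with a median of -0.22. That median was -0.049 without MM 1, -0.353 without MM 2 and -0.405 without ON 1.

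**Figure D2:**
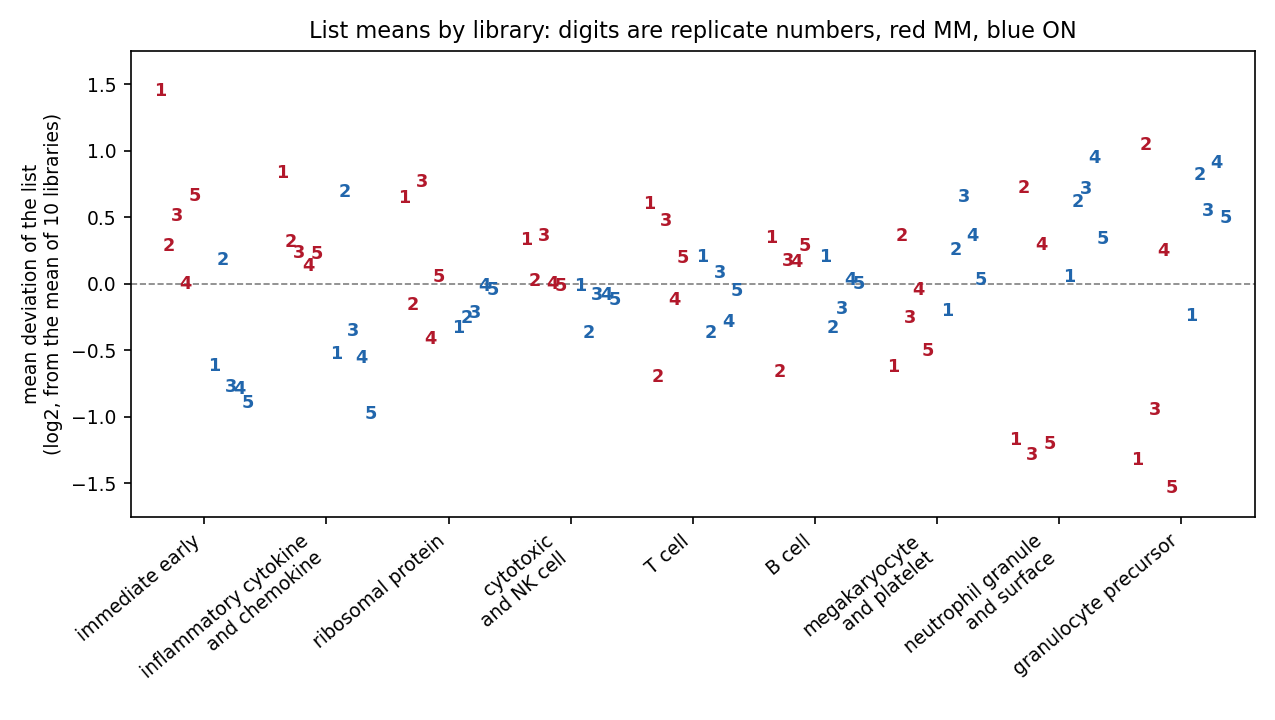
Mean deviation of 9 gene lists in each library (log2, from the mean of the 10 libraries), with replicate numbers as symbols, MM in red and ON in blue. Immediate early genes separate the codes apart from MM 4 and ON 2. In the neutrophil list MM 2 and MM 4 lie within the ON range. In the granulocyte precursor list MM 4 lies within it and MM 2 above it (1.04, with ON at most 0.91). In both lists MM 1, MM 3 and MM 5 lie between -1.54 and -0.95.

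Cytotoxic lymphocyte genes were the cell-marker list in which the 5 MM list means all lay above the 5 ON list means. Those means were -0.02 to 0.36 in MM and -0.37 to -0.02 in ON, so that the nearest libraries were almost level. Of 16 genes tested, 14 lay above 0, where 51.1% of all genes did. An unadjusted p under 0.05 was found for 3 (2.39% of all genes in this direction), and the median was 0.20. Fasl, the death ligand of cytotoxic cells, had 4.13, 3.07, 4.798, 3.71 and 3.32 FPKM in MM 1 to MM 5 and 1.96, 2.83, 1.72, 1.56 and 0.911 FPKM in ON 1 to ON 5, with no overlap and a log2 difference of 0.81 ± 0.17 (limma adjusted p = 0.697). The granule protease gene Gzmb had 10.7, 11, 13.5, 6.41 and 3.81 FPKM in MM 1 to MM 5 and 3.11, 4.57, 4.51, 2.65 and 2.59 FPKM in ON 1 to ON 5 (1.09 ± 0.28), where MM 5 lay within ON. Gzma, another granule protease, differed by 0.27 ± 0.11. The list median was 0.06 without ON 2 and 0.122 without MM 3.

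Genes of T-cell regulation were also mostly above 0. From a list of 15 genes of regulatory T cells and co-inhibitory receptors, 11 lay above 0, where 51.1% of all genes did. An unadjusted p under 0.05 was found for 3 (2.39% of all genes in this direction). The list median was 0.32, and 0.166 without MM 3. Ctla4, an inhibitory receptor of activated and regulatory T cells, had 20.5, 5.49, 17.1, 10.04 and 11.5 FPKM in MM 1 to MM 5 and 5.199, 10.1, 3.25, 1.94 and 2.14 FPKM in ON 1 to ON 5 (1.40 ± 0.40, limma adjusted p = 0.884). MM 2 and MM 4 lay within the ON range, whose top was ON 2. Tigit and Lag3, 2 other inhibitory receptors, differed by 0.40 ± 0.16 and 0.35 ± 0.16. Foxp3, which defines regulatory T cells, was among the 15 and differed by 0.09 ± 0.15. Foxp3 here, and Il4 further on, were picked out after their values were seen. Of 16 general T-cell genes 12 lay above 0 (median 0.16), and of 16 B-cell genes 15 lay above 0 (median 0.12), with 0 of either list at an unadjusted p under 0.05. Both medians depended on single libraries. That of T-cell genes ran from 0.042 (without MM 1) to 0.354 (without MM 2), with 0.069 without MM 3, 0.247 without ON 1 and 0.056 without ON 2. That of B-cell genes ran from 0.037 (without MM 5) to 0.286 (without MM 2), with 0.047 without MM 1, 0.056 without ON 2 and 0.066 without ON 3. MM 2 was the lowest of the 10 libraries in both lists, at list means of -0.70 and -0.66. The type 2 response, through which OVA is known to act in allergy models, had 11 of 15 genes tested, of which 10 lay above 0, with a median of 0.14 (0.06 without ON 2). Ccr8, a chemokine receptor of type 2 helper and regulatory T cells, had 1.85, 0.879, 1.72, 1.29 and 1.53 FPKM in MM 1 to MM 5 and 0.989, 0.994, 0.412, 0.443 and 0.363 FPKM in ON 1 to ON 5, with overlap (0.59 ± 0.17). Il4 differed by 0.02 ± 0.16, and Il5, Il9 and Il13 were below the filter.

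**Figure D3:**
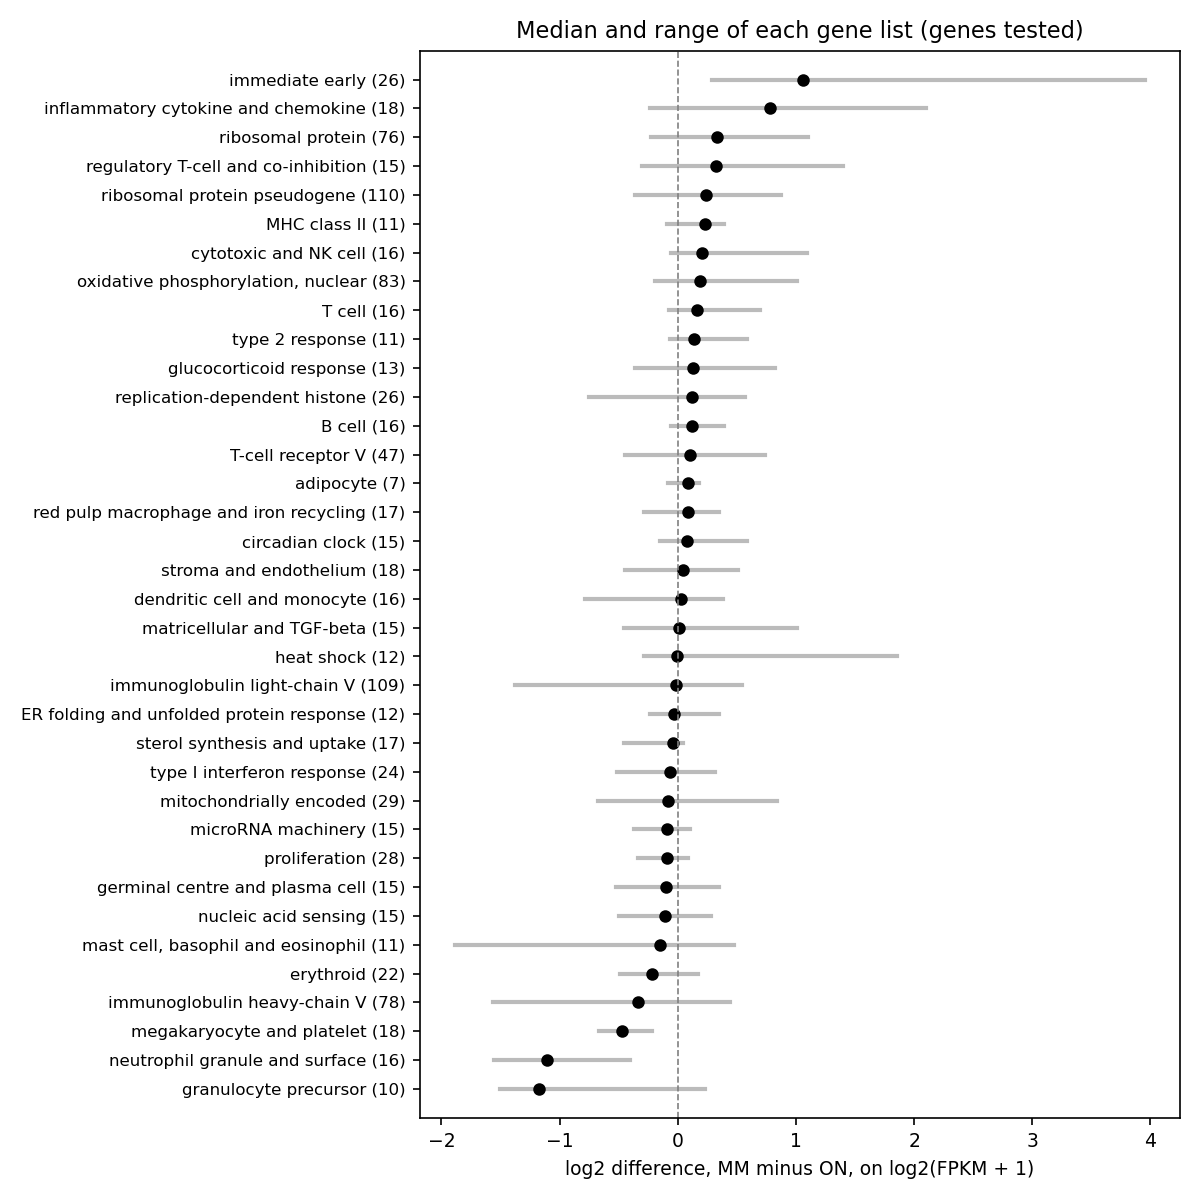
Median (dot) and range (line) of the log2 difference, MM minus ON, of each of 36 gene lists, with the number of genes tested in parentheses. The immediate early and inflammatory lists lie highest, at 1.06 and 0.78, and the neutrophil and granulocyte precursor lists lowest, at -1.11 and -1.17. The pancreatic list is left out.

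Among the other named genes higher in MM, 7 are in none of these lists, and in none of them did the groups overlap. Zfp36l2, a relative of Zfp36 that also promotes messenger RNA decay, had 433, 241, 324, 276 and 280.1 FPKM in MM 1 to MM 5 and 207, 158, 135, 149 and 168 FPKM in ON 1 to ON 5 (0.91 ± 0.18). Ccl24 (eotaxin-2), a chemokine for eosinophils, had 18.7, 16.1, 12.9, 11.9 and 18.6 FPKM in MM 1 to MM 5 and 10.6, 8.12, 8.602, 9.12 and 9.16 FPKM in ON 1 to ON 5 (0.70 ± 0.13). Each was at an adjusted p of 0.479 by limma. Rasl11b, a small GTPase of the RAS-like family, had means of 16.2 ± 3.13 FPKM in MM and 8.81 ± 1.49 in ON (0.80 ± 0.14). Bmp2, a ligand of the TGF-beta superfamily, had 14.8 ± 1.32 FPKM in MM and 10.2 ± 1.35 in ON (0.51 ± 0.10). Bvht, a long noncoding RNA, had 10.3 ± 1.95 FPKM in MM and 5.61 ± 1.29 in ON (0.78 ± 0.15). Serpina1d, a protease inhibitor with near-identical paralogs between which reads could be split, had 1.595 ± 0.251 FPKM in MM and 0.615 ± 0.315 in ON (0.70 ± 0.15). Mir145a, close to Bvht on chromosome 18, had 24.9 ± 9.27 FPKM in MM and 6.82 ± 4.22 in ON, from 19 to 45 reads in MM and 4 to 11 in ON. It is the entry of a small RNA in poly(A)-selected libraries, and which transcript its reads came from was not tested.

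Among named genes lower in MM, the entries Mir7048 and Mir6403 had the smallest p-values and rested on few reads. Mir7048 had 0 or 1 read in each MM library and 3 to 6 in each ON library (-1.998 ± 0.26, limma adjusted p = 0.103), and Mir6403 had 0 or 1 against 1 to 3 (-0.98 ± 0.16). They lie within Dedd2 and Man1c1 on the same strand as these genes, so their reads could belong to either. Klf10, a transcription factor induced by TGF-beta, had 4.63, 6.84, 5.85, 4.97 and 3.97 FPKM in MM 1 to MM 5 and 6.88, 7.05, 7.61, 8.06 and 7.69 FPKM in ON 1 to ON 5, with no overlap (-0.45 ± 0.12). The 17 sterol synthesis and uptake genes tested had a median of -0.04, from -0.092 to -0.006 over the settings run. Bbs10, a chaperonin-like protein of cilia, had 0.637, 0.807, 0.622, 0.736 and 0.768 FPKM in MM 1 to MM 5 and 1.14, 1.297, 1.33, 1.35 and 1.58 FPKM in ON 1 to ON 5 (-0.45 ± 0.10), and Zfp382, a zinc finger gene, differed by -0.42 ± 0.11, both without overlap. Exoc8, a subunit of the exocyst, differed by -0.30 ± 0.09. Mpig6b, an inhibitory receptor of platelets, had 5.16 ± 1.13 FPKM in MM and 8.14 ± 1.55 in ON (-0.57 ± 0.15), and Lrg1, a protein of neutrophil granules, 19.7 ± 5.69 FPKM in MM and 28.4 ± 3.34 in ON (-0.54 ± 0.16). Il1f9 (interleukin-36 gamma) and Gnrh1, the gonadotropin-releasing hormone gene, differed by -0.76 ± 0.21 and -0.36 ± 0.10, and their groups overlapped. The named genes in this direction had a limma adjusted p from 0.103 to 0.884.

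Seed matches were counted in the longest annotated 3′ UTR of each of 11901 genes tested (GENCODE M21, GRCm38). The 11535 genes without a match had a median log2 difference of 0.009, and 47.7% lay below 0. The 366 genes with any match had a median of -0.022, with 57.9% below 0. The 74 genes with the 8-base form had a median of -0.070, and 53 of them (71.6%) lay below 0, while the 292 with only the 7-base form had a median of -0.013. UTR length differed between these classes, at a median of 1113 bases without a match and 2626 bases with the 8-base form. Among genes with UTRs of at least 2000 bases, the 3272 without a match had a median of -0.033 with 61.1% below 0, and the 47 with the 8-base form had -0.095 with 76.6% below 0. Of the 366, 0 passed, and at an unadjusted p under 0.05 there were 5 lower (1.37%) and 7 higher (1.91%). Among the 11535 genes without a match the shares were much the same, 156 lower (1.35%) and 229 higher (1.99%). Of the 74 with the 8-base form, 2 were lower (2.7%) and 1 higher (1.35%) at that threshold. With UTRs of at least 2000 bases, these were 2 lower (4.26%) and 0 higher of the 47 with the 8-base form. The 3272 without a match had 43 lower (1.31%) and 25 higher (0.764%). Leaving out 1 library moved the 8-base median between -0.106 (without MM 2) and -0.041 (without MM 3). These are descriptions over genes, without a test.

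Ccnj was the site gene with the smallest p. It had 3.91, 3.48, 4.51, 4.52 and 4.22 FPKM in MM 1 to MM 5 and 5.14, 4.77, 5.34, 5.86 and 5.39 FPKM in ON 1 to ON 5, with no overlap and a log2 difference of -0.30 ± 0.09 (limma adjusted p = 0.884). Dusp5, with the 7-base match shown above, was higher in MM as given among the immediate early genes. Tnfaip3, 1 of the 14 genes called higher without ON 2, also carries a 7-base match (0.83 ± 0.34 with all libraries). Ubash3b, a phosphatase that restrains T-cell receptor signals, had a 7-base match and 5.34, 6.76, 5.93, 6.98 and 5.42 FPKM in MM 1 to MM 5 and 7.16, 7.63, 9.66, 7.74 and 7.04 FPKM in ON 1 to ON 5, with no overlap (-0.32 ± 0.10). The microRNA itself could not be followed, since Mir676 was listed at 0 FPKM in all 26 libraries of this poly(A)-selected material, and its host gene Eda was at 0.161 to 1.54 FPKM in the 10 libraries. A check of the mimic's delivery was therefore not possible from these values. Of 15 genes of the microRNA machinery, 12 lay below 0, with a median of -0.09 (-0.051 without MM 1 and -0.149 without MM 4). Among them Ago2, the slicing Argonaute, differed by -0.37 ± 0.20 (-0.23 without MM 1) and Tnrc6b, a GW182 scaffold protein, by -0.36 ± 0.16.

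**Figure D4:**
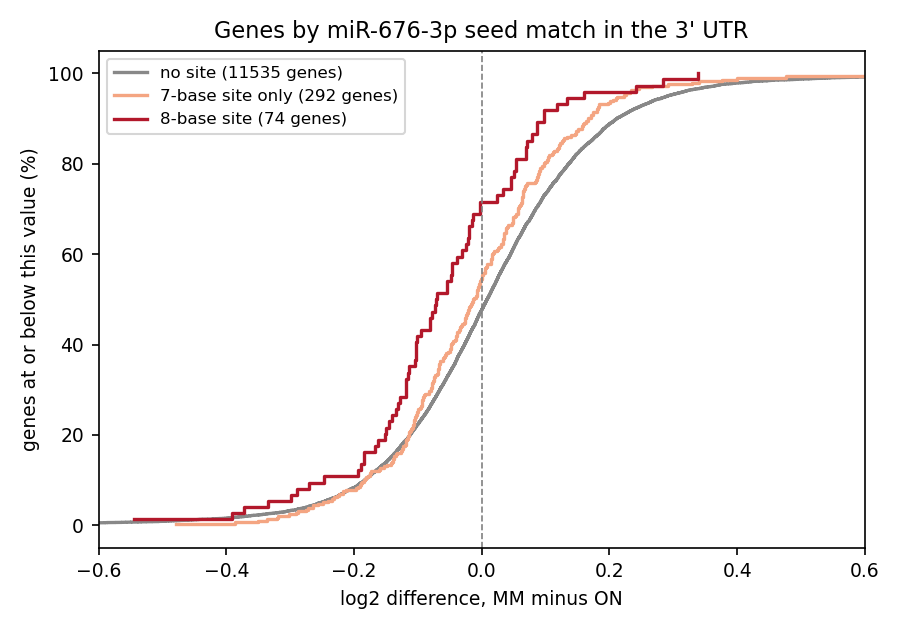
Cumulative share of genes (%) by log2 difference, MM minus ON, for 11535 genes without a miR-676-3p seed match, 292 with the 7-base form only and 74 with the 8-base form. The 8-base curve lies to the left, with 71.6% of genes below 0 against 47.7% without a match.

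Interferon response genes and nucleic acid sensing genes had medians slightly below 0. Of 24 type I interferon response genes 15 lay below 0, where 48.9% of all genes did (median -0.06, and -0.119 without ON 5 to 0.003 without ON 3). The 1 member with an unadjusted p under 0.05 (1.89% of all genes in this direction) was Oasl1, at -0.23 ± 0.09. Of 15 nucleic acid sensing genes tested 10 lay below 0 (median -0.11, and -0.062 without ON 2, ON 3 and MM 2). The 2 with an unadjusted p under 0.05 were Dhx58 (LGP2), at -0.23 ± 0.09, and Eif2ak2 (PKR), at -0.40 ± 0.16.

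Ribosomal protein genes lay above 0 in 75 of 76 cases, with a median of 0.33 and 4 at an unadjusted p under 0.05 (2.39% of all genes in this direction). The MM libraries differed in this, as list means were 0.65, -0.16, 0.77, -0.42 and 0.05 in MM 1 to MM 5 and -0.33 to -0.02 in ON. MM 1 and MM 3 were high, and MM 4 was the lowest of the 10. The median was 0.212 without MM 1, 0.186 without MM 3 and 0.508 without MM 4, and 0.197 with quantile normalisation. Rps27a had 182, 230, 621, 123 and 267 FPKM in MM 1 to MM 5 and 157, 89.99, 142, 104 and 89.3 FPKM in ON 1 to ON 5 (1.10 ± 0.37), and Rplp1, among the most abundant, 3245 ± 1626 FPKM in MM and 2056 ± 456 in ON. Nuclear genes of oxidative phosphorylation (83 tested, 74 above 0, median 0.18) and ribosomal protein pseudogenes (110 tested, 91 above 0, median 0.24), whose reads can be shared with their parent genes, also lay mostly above 0, with MM 1 and MM 3 highest. Without MM 3 these 2 medians were 0.050 and 0.136, and without MM 1 and without MM 4 the former was 0.117 and 0.324. Mitochondrially encoded genes had a median of -0.08, which ranged from -0.151 to 0.137 over the settings run.

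Heavy-chain variable segments of immunoglobulins lay below 0 in 68 of 78 cases, with a median of -0.34. Of the 78, 13 had an unadjusted p under 0.05 (1.89% of all genes in this direction) and 1 was free of overlap (0.236% of all genes). The median was -0.212 without MM 3 and -0.133 with library weights. Without ON 2, ON 3 and MM 2 it was -0.208, with 53 of 78 below 0. Light-chain segments had a median of -0.01 (from -0.085 to 0.073 over the settings run), with 53 of 109 above 0. The heavy-chain segment Ighv1-53 had 0.813, 1.13, 0.697, 1.598 and 1.71 FPKM in MM 1 to MM 5 and 12.7, 2.56, 7.07, 6.67 and 2.43 FPKM in ON 1 to ON 5 (-1.56 ± 0.35). ON 1 was the highest library and all MM libraries were below all ON libraries. Ighv11-2, a segment known from B-1 cells, had 7.43, 30.1, 5.97, 11.9 and 20.2 FPKM in MM 1 to MM 5 and 61.04, 28.3, 38.9, 56.4 and 24.02 FPKM in ON 1 to ON 5 (-1.54 ± 0.41), and the light-chain segment Igkv2-112 differed by -1.37 ± 0.41. Segments are used by clones, are similar in sequence and can share reads.

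The other codes placed these levels in context. Ccn2 spanned 23.9 to 47.7 FPKM in saline (CT), 67.3 to 111 in OS and 27.1 to 50.2 in MN, so that its range in MM overlapped OS and its range in ON overlapped CT and MN. For Ccn1 these ranges were 1.52 to 93.3 in CT, 51.1 to 225 in OS and 2.52 to 43.3 in MN, and for Zfp36l2 they were 53.1 to 179, 169 to 377 and 133 to 220. For Ccn2 and Ccn1 every OS library, which had OVA without the mimic, lay above every MN library, which had OVA with it. The order of those 2 codes, which was not tested, was therefore the reverse of that of MM and ON. Code and treatment cannot be told apart within MM against ON, because each code holds 1 treatment. Klf10 overlapped across the codes, at 4.5 to 9.46 in CT, 4.14 to 8.78 in OS and 5.38 to 8.55 in MN, and so did Mmp9, at 2.17 to 9.65, 6.96 to 15.3 and 2.82 to 16.5.

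**Figure D5:**
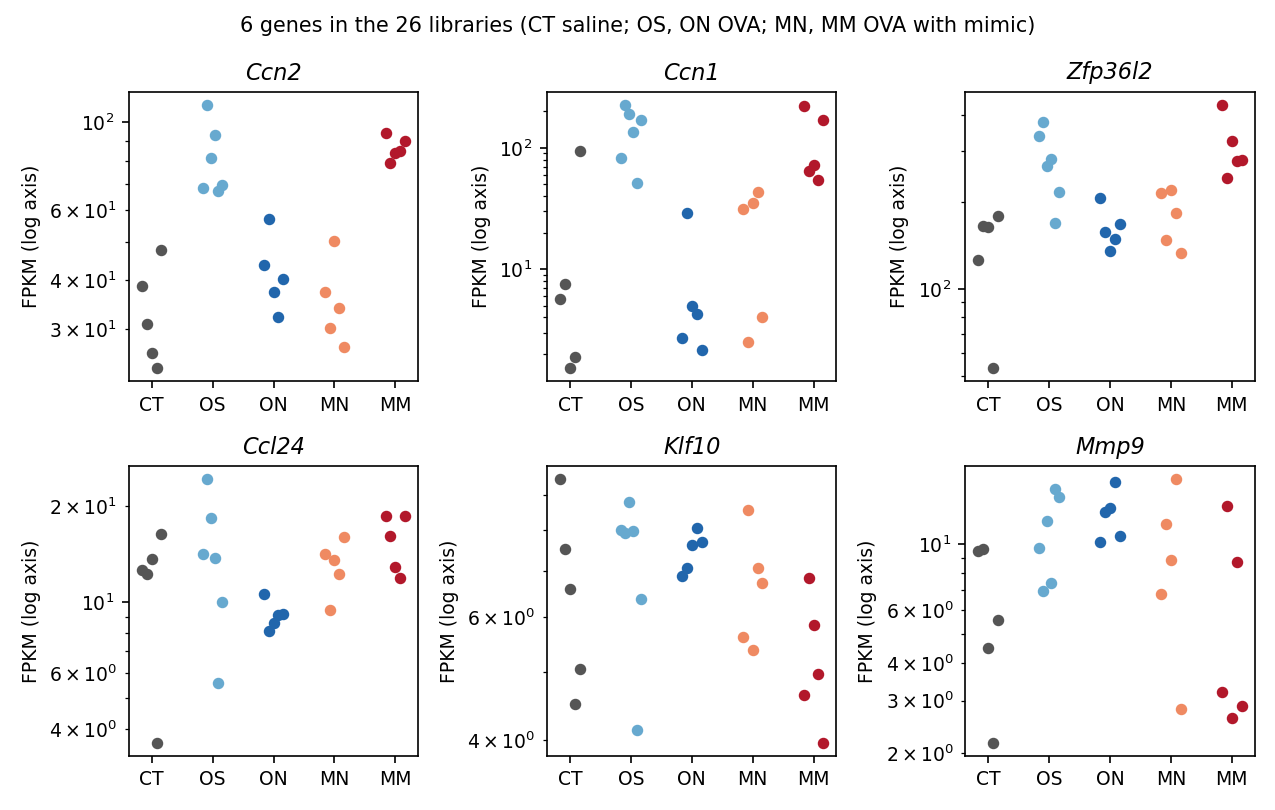
FPKM (log axis) of 6 genes in each of the 26 libraries, by code: CT saline, OS and ON OVA, MN and MM OVA with the mimic. For Ccn2 and Ccn1 the libraries of OS and MM lie high and those of ON and MN lie lower, while Mmp9 spans 2.82 to 16.5 FPKM in MN and 2.63 to 13.4 FPKM in MM.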

How the data were processed

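Poly(A)-selected RNA of mouse spleen was sequenced, and the authors deposited 1 table of FPKM for 56392 genes in 26 libraries with a gene length for each. The submitters' processing notes list edgeR 3.24.3, DESeq2 1.20.0, CASAVA, StringTie 1.3.3b, HISAT2 2.0.5 and featureCounts 1.5.0-p3 without a role. The table's genome build: not given in the sources used here. Multiplied by gene length, 100% of values were whole multiples of 1 step per library (tolerance 0.05), which gave the recovered reads. This precision covers counting error only.

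Libraries were grouped by the code in the labels. limma 3.58.1 in R 4.3.3 was fitted to log2(FPKM + 1) of the 10 MM and ON libraries with a variance trend, two-sided, with Benjamini-Hochberg adjustment over 15672 genes at 0.05, and was tested on simulated data. Fold changes on this scale understate those of low genes. A log2 difference carries its standard error, and a mean FPKM its SD. Named genes are 12 per direction with a mean FPKM of at least 1, by smallest p as 0 passed, without predicted or unnamed genes, pseudogenes and receptor segments. Up to 3 members of each of 37 lists by smallest p and 2 by highest FPKM, and up to 4 site genes, could be named too, and genes outside this rule were chosen after their values were seen. A few genes that the rule names are not reported here. The comparison, lists and tests were chosen with earlier results of these data known. Replicate numbers were not used to pair the samples in the main fit. Alternatives were other filters, a pseudocount of 0.1, all 26 libraries in the fit, 2 scalings, library weights, voom, a replicate block, and libraries left out. Figures used Python and matplotlib.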

Additional observations from a re-analysis of the deposited data

Results flagged for a closer look

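In all, 246 groups of 5 libraries were examined (86 genes and 37 list means in each code). Of these, 20 had a highest or lowest library far from the other 4 by Dixon's criterion. Chance gives about 1 in 20 for independent groups chosen without regard to their values. That rate cannot be set against this count. Some genes were named because they passed only with a library left out, and list means share genes with the named genes.

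In 15 of the 20 the library was ON 2. Some of these genes, among them Ccrl2 and Rgs1, were named because they were called only in fits without ON 2. The count of 15 therefore follows in part from that choice. It was the highest ON library for Ccn1 (28.84 FPKM, others 2.17 to 5.01), Dusp1 (114.8, others 26.4 to 34.3), Nr4a1 (51.96, others 10.7 to 15.8), Dusp5 (25.94, others 5.27 to 7.76) and the immediate early list mean (0.18, others -0.90 to -0.62). The same held for Cxcl2 (30.85 FPKM, others 0.0883 to 1.16), Ccrl2 (57.35, others 7.25 to 9.30), Rgs1 (33.18, others 6.19 to 10.1), Nfkbiz (32.68, others 7.43 to 10.03) and Plaur, the urokinase receptor (46.25, others 8.004 to 11.2). It also held for Tgif1 (11.82 FPKM) and Tigit (5.867). The stress-induced chaperones Hspa1a (12.69 FPKM) and Hspa1b (39.14) are near-identical and can share reads. For the cytotoxic and NK cell list, ON 2 was the lowest (-0.372, others -0.12 to -0.02).

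In MM, library MM 2 was the lowest for the B-cell list mean (-0.661, others 0.16 to 0.34) and the highest for Lrg1 (29.72 FPKM, others 16.2 to 18.3) and the pancreatic list mean (7.97, others -3.36 to -3.12). MM 1 was the highest for the inflammatory list mean (0.834, others 0.13 to 0.32). MM 4 had the single read of Mir6403 in MM (0.4349 FPKM, others 0).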

How the results depend on the processing

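Genes passing were 0 with all libraries, 3 with library weights (Ccn1, Ccn2, Mir7048), 2 with voom, 7 without ON 2, ON 3 and MM 2, and 0 to 15 when 1 replicate was left out, above 0 only without ON 2. In the other settings limma called 0. Genes without overlap were 83 with all libraries, 151 with no filter, 1399 without the 3 libraries, 114 to 383 with 1 replicate left out (383 without MM 2, 290 without ON 2, 247 without MM 4), and 73 to 83 under other filters, scalings and the pseudocount. With fewer libraries more genes are free of overlap by construction. The replicate block called 0 genes (smallest adjusted p = 0.108). Deviations of same-numbered libraries correlated at -0.195 to 0.313, and those of differently numbered libraries at -0.391 to 0.259. The highest value was that of MM 2 with ON 2, both of which hold pancreatic reads. Whether the numbers pair samples cannot be told from these values. None of the 86 named genes changed direction in any setting run. The 8-base site median was -0.106 to -0.041 and that of all site genes -0.034 to -0.012. A single read on 1 kilobase was worth 0.0520 to 0.0899 FPKM, which limits the low microRNA entries.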

Other observations

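Eosinophil granule genes spread widely within each code. Prg2, which encodes the major basic protein of eosinophil granules, had 6.68, 705, 9.49, 311 and 4.87 FPKM in MM 1 to MM 5 and 31.03, 778, 231, 87.6 and 140.1 FPKM in ON 1 to ON 5. MM 2 and MM 4 were high and the other 3 MM libraries low, the same division as in the neutrophil genes, and ON 2 was the highest of the 10. Epx, the eosinophil peroxidase, picked out after its values were seen, had 0.2504, 49.4, 0.223, 28.8 and 0.0439 FPKM in MM 1 to MM 5 and 2.01, 80.9, 15.2, 6.24 and 7.16 FPKM in ON 1 to ON 5, with MM 2 and MM 4 again high. The log2 differences were -1.89 ± 1.41 and -1.32 ± 1.26. Single libraries moved both, Prg2 from -2.92 (without MM 2) to -1.195 (without MM 5) and Epx from -2.18 (without MM 2) to -0.63 (without ON 2), with -0.84, -0.84, -1.99 and -0.78 without MM 1, MM 3, MM 4 and MM 5. The voom value of Epx was -2.95. Of 11 mast cell, basophil and eosinophil genes tested, 8 lay below 0 with a median of -0.15 (-0.332, -0.226 and -0.245 without MM 2, MM 4 and ON 1, and -0.492 by voom), and Cpa3, a mast cell and basophil protease, differed by -0.44 ± 0.19.

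Of 13 glucocorticoid response genes tested, 9 lay above 0 with a median of 0.13, which ran from 0.014 to 0.384 over the settings run and was highest without ON 2. Tsc22d3 (GILZ), a glucocorticoid-induced leucine zipper protein, had 159, 81, 154, 102 and 115 FPKM in MM 1 to MM 5 and 97.95, 82.5, 68.1, 68.8 and 81.2 FPKM in ON 1 to ON 5 (0.58 ± 0.19). Errfi1, which encodes an inhibitor of EGF receptor signalling, had 95.2, 97.03, 81.7, 79.6 and 83.7 FPKM in MM 1 to MM 5 and 62.8, 126, 29.3, 31.4 and 37.2 FPKM in ON 1 to ON 5 (0.83 ± 0.34), with ON 2 above all MM libraries and the other 4 ON libraries below them. Of 15 clock genes, 12 lay above 0 with a median of 0.07 (0.114, 0.044, 0.047 and 0.127 without MM 3, MM 4, ON 2 and ON 3), and the 5 MM list means (0.00 to 0.13) lay above the 5 ON list means (-0.11 to -0.05). Ciart, a repressor in the clock, had 2.15, 1.65, 1.84, 1.71 and 1.65 FPKM in MM 1 to MM 5 and 0.92, 1.23, 0.884, 1.38 and 1.05 FPKM in ON 1 to ON 5, without overlap (0.42 ± 0.11). Of 15 matricellular and TGF-beta genes, 8 lay above 0 (median 0.01, and -0.027 to 0.081 over the settings run), with Adamts1, a matrix protease, at 1.01 ± 0.34.

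The remaining lists had medians from -0.10 to 0.23, apart from the pancreatic list. MHC class II genes, which present antigen, had a median of 0.23 with 10 of 11 above 0 (0.117 without MM 1, 0.125 without MM 3). T-cell receptor variable segments had 0.10 with 32 of 47 above 0 (0.024 to 0.216 over the settings run). Replication-dependent histones had 0.12 with 18 of 26 above 0 (0.066, 0.046 and 0.218 without MM 3, ON 1 and ON 2). Proliferation genes had a median of -0.09 with 24 of 28 below 0. This was -0.014 without MM 1, -0.211 without MM 2, -0.223 without ON 1, -0.019 without ON 4 and -0.045 without ON 5. Medians were 0.09 for red pulp macrophage genes, 0.03 for dendritic cells and monocytes, 0.04 for stroma and endothelium, 0.09 for adipocytes, -0.10 for germinal centre and plasma cells, -0.03 for protein folding in the endoplasmic reticulum and 0.00 for heat shock genes. These 7 medians took both signs over the settings run. Hspa1a and Hspa1b had 52.7, 2.73, 6.31, 2.19 and 34.5 FPKM in MM 1 to MM 5 and 0.6598, 12.7, 1.27, 0.9296 and 1.66 FPKM in ON 1 to ON 5, and 104, 6.18, 13.9, 5.18 and 74.1 FPKM in MM 1 to MM 5 and 3.25, 39.1, 4.45, 4.07 and 5.17 FPKM in ON 1 to ON 5, respectively, with MM 1 and MM 5 highest and ON 2 above the other ON libraries. The log2 difference of Hspa1b was 1.50 ± 0.89, and 0.93 without MM 1. The 4 pancreatic genes tested had a median of -1.92, and 0.06 without ON 2, ON 3 and MM 2.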
